A study of Mus musculus with 4 samples.

Results

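The globin genes and Alas2 were read in RNA sequencing of eye tissue from mouse embryos. The 8 genes were taken by symbol from 18702 genes listed for each library, and every one of the 8 was found. They are 3 embryonic globin genes (Hba-x, Hbb-y and Hbb-bh1), 4 adult globin genes (Hba-a1, Hba-a2, Hbb-bs and Hbb-bt) and Alas2, which served as a red cell reference. The study had 4 libraries of total RNA, 2 labelled KO (embryos described as Anp32b−/−) and 2 labelled WT (Anp32b+/+), all of the strain C57BL/6. The sources used here do not give the embryonic stage, the number of embryos behind a library, or how the null allele was made. Whether replicate libraries are of different embryos is likewise unstated, and p-values then reflect only the spread among these samples, possibly a technical one. Values are FPKM, a count of fragments scaled by transcript length and by the total of the library, and errors are SDs with n = 2 libraries per group.

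Hemoglobin carries oxygen in red cells and is built from alpha-type and beta-type globin chains, each holding a heme group. In the mouse the first red cells, the primitive ones of the yolk sac, make the embryonic chains, whereas the definitive red cells that the fetal liver and later the bone marrow produce make the adult chains. Within primitive cells the beta-type genes are used in turn, Hbb-bh1 early and Hbb-y later. Red cells are not cells of the eye itself but reach it in its vessels, and mammalian definitive red cells lose their nucleus while they still carry globin mRNA.

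The beta-type genes lie on chromosome 7 on the minus strand, in the order Hbb-y, Hbb-bh1, Hbb-bs and Hbb-bt along the direction of transcription, and the alpha-type genes on chromosome 11 on the plus strand, in the order Hba-x, Hba-a1 and Hba-a2. In the RefSeq annotation of GRCm38.p6, Hbb-y covers positions 103851754 to 103853207, Hbb-bh1 103841638 to 103843162, Hbb-bs 103826523 to 103827928 and Hbb-bt 103812524 to 103813923. Hba-x covers 32276600 to 32278116, Hba-a1 32283672 to 32284486 and Hba-a2 32296492 to 32297310. Alas2 is on chromosome X, at 150547417 to 150570622. All 8 are protein-coding genes.

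RefSeq promoter sequences of GRCm38.p6 were held for 7 of the 8 genes. The 150 bases before the start of transcription are shown for the embryonic genes Hba-x and Hbb-y and for Hba-a1, Hbb-bs and Hbb-bt, adult genes of the same clusters, because levels of embryonic and adult genes are set against each other within a cluster. That of Hba-a2 was searched but is not printed. The sequences run 5′ to 3′ on the gene's own strand, and capitals mark the motifs searched on both strands, namely the CACCC box, the CCAAT box, the core letters GATAA of GATA sites, and 2 forms of the TATA box, TATAA as well as ATAAA.
Hba-x, chr11:32276450-32276599, plus strand: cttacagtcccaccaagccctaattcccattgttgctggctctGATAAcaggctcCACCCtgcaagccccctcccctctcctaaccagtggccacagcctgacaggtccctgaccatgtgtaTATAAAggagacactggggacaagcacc
Hba-a1, chr11:32283522-32283671, plus strand: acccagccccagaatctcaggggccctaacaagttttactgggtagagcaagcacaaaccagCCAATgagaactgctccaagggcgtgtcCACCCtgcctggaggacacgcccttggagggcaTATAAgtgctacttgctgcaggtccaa
Hbb-y, chr7:103853208-103853357, minus strand: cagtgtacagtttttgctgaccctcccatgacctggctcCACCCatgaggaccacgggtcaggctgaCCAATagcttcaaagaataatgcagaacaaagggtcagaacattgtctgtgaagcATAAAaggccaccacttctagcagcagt
Hbb-bs, chr7:103827929-103828078, minus strand: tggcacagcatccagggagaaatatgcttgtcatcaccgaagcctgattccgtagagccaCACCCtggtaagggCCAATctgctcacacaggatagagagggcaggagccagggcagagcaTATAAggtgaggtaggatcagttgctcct
Hbb-bt, chr7:103813924-103814073, minus strand: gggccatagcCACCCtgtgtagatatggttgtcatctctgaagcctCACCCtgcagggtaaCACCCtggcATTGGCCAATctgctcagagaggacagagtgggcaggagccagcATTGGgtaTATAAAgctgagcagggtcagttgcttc
In capitals, TATAAA holds both TATA forms, and ATTGG is CCAAT read on the other strand. The CACCC letters, which the red cell factor KLF1 can bind, were present in 7 of 7 member windows, against 37.4% of 32851 promoter windows of the same length. CCAAT was present in 5 of 7, against 24.5% of all windows, and was not found in the Hba-x and Alas2 windows. GATAA was present in 2 of 7 (Hba-x and Alas2), against 13.3%. TATAA was present in 5 of 7, against 14.2%, and ATAAA in 4 of 7, against 24.1%. Because TATAA was added after the promoters were seen, its count is a description only. The Hba-a1 and Hba-a2 windows hold almost the same sequence, so they are not independent in any of these counts. Hbb-y had ATAAA but not TATAA, with its first base 28 bases before the start, where the adult beta-type genes Hbb-bs and Hbb-bt had TATAA, 29 and 28 bases before it. Hbb-bt had 3 CACCC matches, whereas Hbb-y, Hbb-bs, Hba-x and Hba-a1 had 1 each. These matches describe letters in the window and do not show that a factor binds there.

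How far the genes can be told apart by their reads differs between the embryonic and the adult members. Hba-a1 and Hba-a2 differ at 1 of 426 coding bases, counted without the stop codon, and Hbb-bs and Hbb-bt at 1 of 441. Of the 50-base stretches of the Hba-a2 transcript 86.9% also occur in Hba-a1, and of those of the Hbb-bt transcript 58.3% also occur in Hbb-bs. The separate values of the adult copies are therefore uncertain, and their sums are the firmer measure. The transcripts of Hba-x, Hbb-y, Hbb-bh1 and Alas2 share no 50-base stretch with a transcript of another gene. Coding identity was 74.4% between Hbb-y and Hbb-bs, 76.4% between Hbb-y and Hbb-bh1, and 61.7% between Hba-x and Hba-a1.

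The libraries were close in depth, which steps in low FPKM values placed at about 17600000 to 17860000 fragments in the KO libraries and 17720000 to 17820000 in the WT libraries. Anp32b, the targeted gene, stood at 94.53 and 92.67 FPKM in the KO libraries, against 163.18 and 179.12 FPKM in the WT libraries, so that the KO mean was 54.7% of the WT mean. The libraries labelled KO thus kept Anp32b transcript, and which part of the gene is deleted is not given in the sources, so this level does not check the deletion itself. All 8 markers of eye tissue were present in every library, and lens crystallin levels were far lower in KO (Cryaa at 1350.48 and 1365.58 FPKM, against 13106.29 and 13541.22 FPKM in WT), which shifts the values of all other genes upward in a measure relative to all fragments. All 10 genes of the eye tissue list passed the limma threshold, an adjusted p under 0.05, as lower in KO (median log2 fold change −0.54), against 21.1% of all genes tested, among them the lens gene Crybb1 (−3.49) and the eye field factor Pax6 (−0.54). With the deposited TPM values 9 of them were called lower, and Rax (−0.11 with FPKM) was not called and turned in sign (0.01). Of 6 red cell markers only Alas2 and the anion exchanger gene Slc4a1 reached a mean of 1 FPKM, and Ahsp, the gene of a chaperone for alpha globin, was not analysed here.

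Embryonic globins were rare transcripts in every library, and Hbb-y, the only one of the 3 at the level tested, was higher in KO. Hbb-y, the later of the embryonic beta-type genes, stood at 3.95 and 4.13 FPKM in the KO libraries, against 0.37 and 0.55 FPKM in the WT libraries. The groups were far apart, and the KO mean of 4.04 ± 0.13 FPKM was 8.78-fold the WT mean of 0.46 ± 0.13 FPKM. Its fitted log2 fold change on the log2(FPKM + 1) scale was 1.79 (SE 0.10, limma adjusted p = 1.25e-05), which understates the change of a gene at so low a level. At the estimated depth these values correspond to about 43.0 and 45.7 fragments in the KO libraries, against about 4.1 and 6.0 fragments in the WT libraries. Hbb-y entered the test, which required a mean of at least 1 FPKM, only through its KO values, so that its passing that filter and its difference are not independent. Of the 13887 genes tested, 0.1% had a larger log2 fold change.

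Hba-x, the embryonic alpha-type (zeta) gene, had 1.61 and 1.33 FPKM in the KO libraries, against 0.28 and 0.57 FPKM in the WT libraries. The 4 values correspond to about 17.0 and 14.3 fragments in the KO libraries, against about 3.0 and 6.1 fragments in the WT libraries. The groups did not overlap, with 1.47 ± 0.20 FPKM in KO and 0.425 ± 0.205 FPKM in WT, a 3.46-fold ratio of means. That ratio rests on few WT fragments and was 5.25-fold without WT replicate 2 and 2.58-fold without WT replicate 1. With a mean of 0.948 FPKM over the 4 libraries it lay just under the level tested. Without a filter on low values it was called higher (log2 fold change 0.80, limma adjusted p = 0.011), as were 24.5% of all genes. With the deposited TPM values, 3.78 and 3.09 in KO against 0.62 and 1.22 in WT, it passed the filter only through its KO values, and its call there (1.22, limma adjusted p = 0.00119, where 47.8% of all genes were called higher) is given as a description.

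Hbb-bh1, the early embryonic beta-type gene, was at the limit of detection. It was listed at 0.28 FPKM in each KO library, against 0.09 FPKM in WT replicate 1 and 0 in WT replicate 2. These values amount to about 3.0 and 3.1 fragments in the KO libraries, against 1.0 and 0.0 fragments in the WT libraries, so no fold is given, and no difference was detectable at this depth. Without the filter the fit called it higher (limma adjusted p = 0.0183) on these few fragments, where 24.5% of all genes were called higher.

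**Figure D1:**
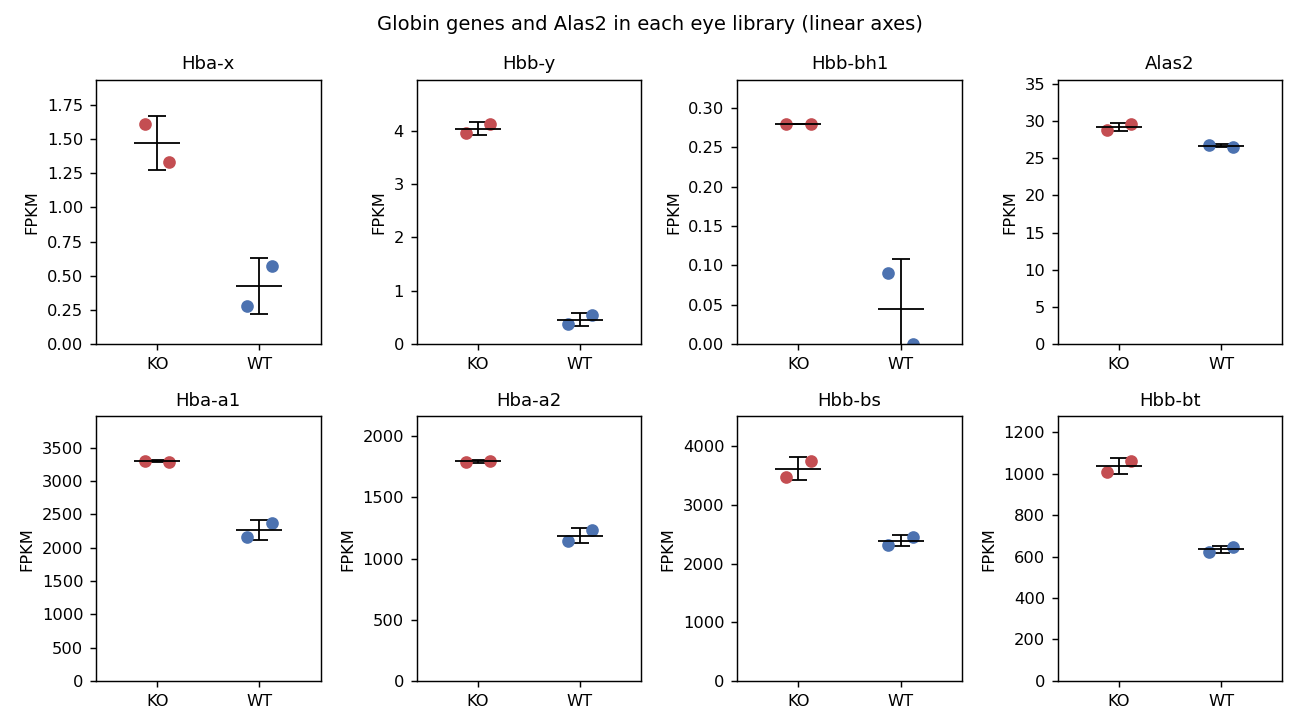
FPKM of the 8 genes in each library, with a panel per gene and linear axes that start at 0; points are libraries (KO left, WT right), horizontal bars the group means and whiskers the SD (n = 2). In each panel the KO points lie above the WT points, with the widest gap in proportion, Hbb-bh1 at its few fragments left aside, for Hbb-y (4.04 against 0.46 FPKM) and the narrowest for Alas2 (29.2 against 26.6 FPKM).

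The 4 adult globins made up nearly all globin mRNA, and each was about 1.5-fold higher in KO. Their summed level was 9587 and 9910 FPKM in the KO libraries, against 6251 and 6709 FPKM in the WT libraries (9748 ± 229 FPKM in KO and 6480 ± 324 FPKM in WT), whereas the 3 embryonic genes together reached 5.84 and 5.74 FPKM in KO, against 0.74 FPKM in WT replicate 1 and 1.12 FPKM in WT replicate 2. The 7 globins took 2.25% and 2.31% of the FPKM sum in the KO libraries, against 1.35% and 1.43% in the WT libraries. In bulk tissue more red cells and more globin mRNA per red cell cannot be told apart, and the same holds for every cell type below.

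Of the adult alpha-type genes, Hba-a1 stood at 3308.46 and 3287.22 FPKM in the KO libraries, against 2162.28 and 2371.9 FPKM in the WT libraries (log2 fold change 0.54, SE 0.05, limma adjusted p = 0.000143). Its neighbour Hba-a2, which encodes the same kind of chain, had 1785.83 and 1800.54 FPKM in KO, against 1143.91 and 1229.44 FPKM in WT (0.60, SE 0.04, adjusted p = 4.12e-05). For both genes the KO libraries were closer to each other than the WT libraries were. Their groups did not overlap, as for 77.9% of all genes tested.

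Of the adult beta-type genes, Hbb-bs was the most abundant globin transcript in all 4 libraries, at 3483.67 and 3759.38 FPKM in KO, against 2321.66 and 2461.46 FPKM in WT (log2 fold change 0.60, SE 0.05, limma adjusted p = 0.000101). Hbb-bt stood at 1008.77 and 1062.92 FPKM in KO, against 623.13 and 646.29 FPKM in WT, and had the largest fold change of the adult globins (0.71, SE 0.04, adjusted p = 1.27e-05). Each of the 4 adult genes was called higher under 11 of 11 alternative settings, with log2 fold changes between 0.46 and 0.83. The share of all genes called higher was 33.4% with a pseudocount of 0.1, 34.1% with the filter of 5 FPKM, 47.8% with TPM, 25.4% when libraries were scaled without crystallin and erythroid genes, 28.3% with median-of-ratios scaling and 34.4% with the replicate block. It was 24.6% without KO replicate 1, 24.3% without KO replicate 2, 28.4% without WT replicate 1 and 27.5% without WT replicate 2.

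Of all genes tested, 33.5% were called higher in KO and 21.1% lower (54.6% in either direction), and 77.9% had groups that did not overlap, 45.6% with KO above WT and 32.4% with KO below. In the whole list of 8, 6 passed the filter and all 6 were called higher, a count that is not read as support since Hbb-y passed through KO alone. The median log2 fold change of all genes was 0.04, and 6.1% to 10.3% of genes had a larger one than the adult globins.

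Alas2, whose product is the first enzyme of heme synthesis in red cells, differed little. It had 28.83 and 29.6 FPKM in the KO libraries, against 26.79 and 26.49 FPKM in the WT libraries, or 29.2 ± 0.54 against 26.6 ± 0.21 FPKM. On the log2 scale the KO libraries were 0.13 higher (SE 0.03, limma adjusted p = 0.0176), and 36.8% of genes had a larger one. The call was lost when libraries were scaled without crystallin and erythroid genes (0.05, adjusted p = 0.291), with median-of-ratios scaling (0.08, adjusted p = 0.0786) and without any 1 of the 4 libraries (0.11 to 0.15, adjusted p from 0.0535 to 0.108). With TPM it was 0.25 (adjusted p = 0.00107), in a scale on which the median of all genes was 0.16.

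**Figure D2:**
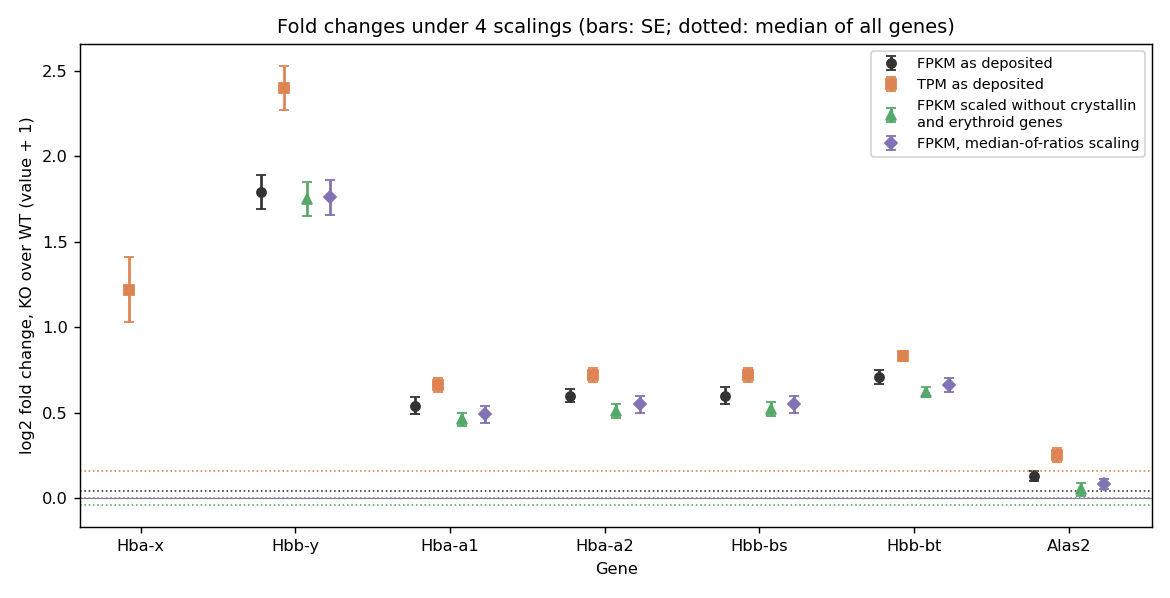
Log2 fold change of KO over WT, on the log2(value + 1) scale, for 7 genes under 4 ways of scaling the libraries; points are limma estimates, whiskers their SE, and dotted lines the median of all genes under the same scaling. Hbb-y stays above 1.7 and the adult globins between 0.46 and 0.83, while Alas2 lies between 0.05 and 0.25; Hba-x is drawn for TPM only, where it passed the filter.

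Ratios between genes of the same library do not depend on how that library is scaled. The embryonic to adult ratio of the beta-type genes, (Hbb-y + Hbb-bh1) over (Hbb-bs + Hbb-bt), was 0.0942% and 0.0915% in the KO libraries, against 0.0156% and 0.0177% in the WT libraries. The means of 0.0928% ± 0.0019 in KO and 0.0167% ± 0.0015 in WT gave a 5.57-fold ratio. The same ratio of the alpha-type genes, Hba-x over (Hba-a1 + Hba-a2), was 0.0316% and 0.0261% in KO, against 0.00847% and 0.0158% in WT, a 2.38-fold ratio of means. In both clusters every KO value lay above both WT values. The exact permutation test over libraries, two-sided, gave p = 0.3333 for each, the smallest that 2 against 2 libraries allow, so the test cannot reach 0.05 in this design.

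The adult globins were also higher relative to Alas2. Their summed FPKM was 333 and 335 times that of Alas2 in the KO libraries, against 233 and 253 times in the WT libraries (exact permutation p = 0.3333, again the smallest possible). The ratio of means was 1.37-fold, with 1.34-fold for the adult alpha-type and 1.40-fold for the adult beta-type genes taken alone. Hbb-y reached 13.7% and 14.0% of the Alas2 level in KO, against 1.38% and 2.08% in WT. Hba-x reached 5.58% and 4.49% of it in KO, against 1.05% and 2.15% in WT.

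The balance of the chains did not separate the groups. Alpha-type over beta-type FPKM was 1.13 and 1.05 in the KO libraries, against 1.12 and 1.16 in the WT libraries, with overlapping groups (difference −0.0469, exact permutation p = 0.6667). Adjusted by Benjamini-Hochberg over the 4 ratios tested, the exact permutation p was 0.444 for the other 3 and 0.667 for this one. Within the adult pairs, Hba-a1 over Hba-a2 was 1.85 and 1.83 in KO, against 1.89 and 1.93 in WT. Hbb-bs over Hbb-bt was 3.45 and 3.54 in KO, against 3.73 and 3.81 in WT, and how reads shared by the copies were divided is not given.

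**Figure D3:**
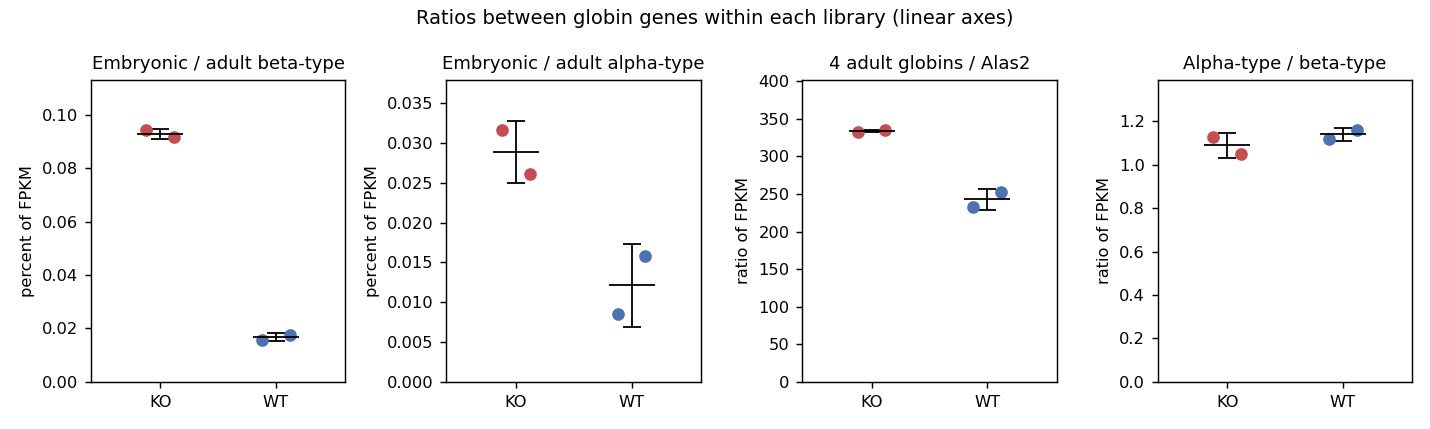
Ratios of FPKM between globin genes, and of the adult globins to Alas2, in each library, on linear axes that start at 0; points are libraries (KO left, WT right), bars means and whiskers SD (n = 2). The embryonic to adult ratio is higher in KO in both clusters (0.0928% against 0.0167% for beta-type genes), the adult globin to Alas2 ratio is higher in KO (334 against 243), and the alpha-type to beta-type ratio overlaps.

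Other genes of red cells did not move as a block. Of 15 genes of heme synthesis and iron supply, all tested, 5 were higher in KO, 0 lower and 10 not called, with a median log2 fold change of 0.10 against 0.04 over all genes. That count is close to the 33.5% of all genes called higher and is no result about the list. With TPM 12 were called higher, in a table where 47.8% of all genes were. The higher genes were Tfrc, the transferrin receptor through which cells take up iron (24.1 in KO against 16.1 FPKM in WT, 0.55, limma adjusted p = 3.43e-05), the mitochondrial iron importer Slc25a37 (0.52, adjusted p = 0.000108), the heme pathway enzyme gene Cpox (0.47, adjusted p = 0.000851), the ferrireductase gene Steap3 (0.58, adjusted p = 0.00674) and Fech, whose product inserts iron into heme (0.19). Steap3 was not called without KO replicate 1 or without KO replicate 2, and Fech was not called in 4 of 11 alternatives, among them the scaling without crystallin and erythroid genes. The list count fell to 3 without KO replicate 1 and to 3 without KO replicate 2.

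Of 16 genes of the red cell membrane and its skeleton, 9 passed the filter, 3 of them higher in KO and 5 lower. Ermap, a lower gene with 0.76 and 0.86 FPKM in KO, against 1.78 and 2.01 FPKM in WT, passed only through its WT values. Its place in the count is thus not independent of its direction. Among all genes tested the shares were 33.5% higher and 21.1% lower, and the list median was −0.42. The glycophorin gene Gypc (12.9 in KO against 7.52 FPKM in WT, log2 fold change 0.70) and the ankyrin gene Ank1 (13.3 in KO against 7.98 FPKM in WT, 0.67) were higher. The beta spectrin gene Sptb (6.49 in KO against 15.0 FPKM in WT, −1.10) and Epb41, for protein 4.1 (−0.43), were lower, and both are known from neurons too. Epb42, for a red cell membrane protein, was scarce, at 0.27 and 0.22 FPKM in KO, against 0.16 and 0.17 FPKM in WT. Slc4a1 had 1.53 and 1.37 FPKM in KO, against 1.01 and 1.07 FPKM in WT, and did not pass the threshold (0.26, limma adjusted p = 0.0509).

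Of 11 enzymes and chaperones of late red cells, 6 were tested, with 1 higher, 3 lower and a median of −0.07. The shares over all genes tested were 33.5% higher and 21.1% lower. Blvrb, a biliverdin reductase gene, was higher (17.3 in KO against 9.47 FPKM in WT, log2 fold change 0.80). Car2, a carbonic anhydrase gene that the eye expresses too, was lower (11.2 in KO against 58.2 FPKM in WT, −2.28), as was Bpgm (−0.31), whose product makes the regulator of oxygen affinity. Prdx2, a peroxidase gene (−0.12), was not called with TPM, where its sign turned (0.01), or without either KO replicate. Car1, Hemgn and Trim58 stayed at or under 0.09 FPKM in every library.

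Of 16 regulators of red cell formation and of globin genes, 10 were tested, with 4 higher, 1 lower and a median of 0.19, near the 33.5% of all genes called higher and below the 21.1% called lower. The factors most confined to blood were barely detected, with Gata1 at 0.14 and 0.06 FPKM in KO, against 0.03 FPKM in both WT libraries, and Klf1 at 0.37 and 0.40 FPKM in KO, against 0.51 and 0.37 FPKM in WT. Bcl11a, which silences embryonic beta-type globins in definitive red cells and is also a gene of neurons, was higher (12.15 and 11.92 FPKM in KO, against 8.97 and 7.47 FPKM in WT, log2 fold change 0.50, limma adjusted p = 0.00157). Zbtb7a (0.24), another repressor of embryonic globins, Sox6 (0.30), which acts with Bcl11a on the mouse Hbb-y gene, and Lmo2 (0.32) were higher as well. Zbtb7a was not called without KO replicate 1, Lmo2 was not called without KO replicate 2, and Sox6 was not called without either KO replicate or without WT replicate 2. Myb, a factor of early blood progenitors, was lower (50.9 in KO against 77.0 FPKM in WT, −0.59, limma adjusted p = 8.27e-06). Its level was far above those of Gata1 and Klf1 in every library, and which cells its transcript came from was not tested. The list count of higher genes fell to 2 without KO replicate 1 and to 2 without KO replicate 2, and was 9 of 12 tested with TPM, where 47.8% of all genes were called higher.

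Genes that clear hemoglobin, heme and iron went both ways. Of 8 tested of 9, 5 were higher and 1 was lower, with a median of 0.17. Over all genes tested, 33.5% were called higher and 21.1% lower. Hmox1, the inducible enzyme that breaks heme down, was lower (17.5 in KO against 35.0 FPKM in WT, log2 fold change −0.96, limma adjusted p = 2.82e-06). The iron exporter Slc40a1 (5.47 and 5.54 FPKM in KO, against 3.03 and 2.98 FPKM in WT, 0.70) and the hemopexin receptor gene Lrp1 (0.43) were higher. The ferritin light chain gene Ftl1 (0.14) was not called in 4 of 11 alternatives, both rescalings of FPKM among them. The count of higher genes was 3 without KO replicate 2, 3 without WT replicate 2 and 3 when libraries were scaled without crystallin and erythroid genes.

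Most endothelial markers and all leukocyte markers tested were higher in the libraries in which the globins were higher, whereas platelet genes went both ways. Of 11 endothelial genes, 9 were higher in KO and 1, Kdr (−0.37), was lower, with a median of 0.65, against 33.5% higher and 21.1% lower among all genes. The endothelial genes Pecam1 (23.4 in KO against 11.9 FPKM in WT, log2 fold change 0.91), Cdh5 (0.71), Emcn (0.72) and Esam (0.67) had the lowest p-values. All 11 macrophage and leukocyte genes tested were higher (median 0.57, again against 33.5% of all genes), led by Tyrobp (1.22) and Lyz2 (1.18), with Cd68 at 0.85 and C1qc at 0.51. Adgre1 (1.91 and 2.22 FPKM in KO, against 0.99 and 0.88 FPKM in WT) passed the filter only through its KO values. Its place in that count is therefore not independent of its direction. With no filter all 12 leukocyte genes were called higher, as were 24.5% of all genes. Their summed level over 12 genes was 125 and 135 FPKM in KO, against 75.3 and 68.6 FPKM in WT, and that of the 11 endothelial genes was 219 and 218 FPKM in KO, against 173 FPKM in both WT libraries. Of 8 platelet genes 3 were tested, with Pf4 (0.64) and Itga2b (0.41) higher and Gp1bb (−0.54), which neural tissue also expresses, lower. Itga2b was not called without KO replicate 1 or without WT replicate 2. No marker gene of these 3 lists was at 0 in all libraries. Their part in the globin values was not tested.

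**Figure D4:**
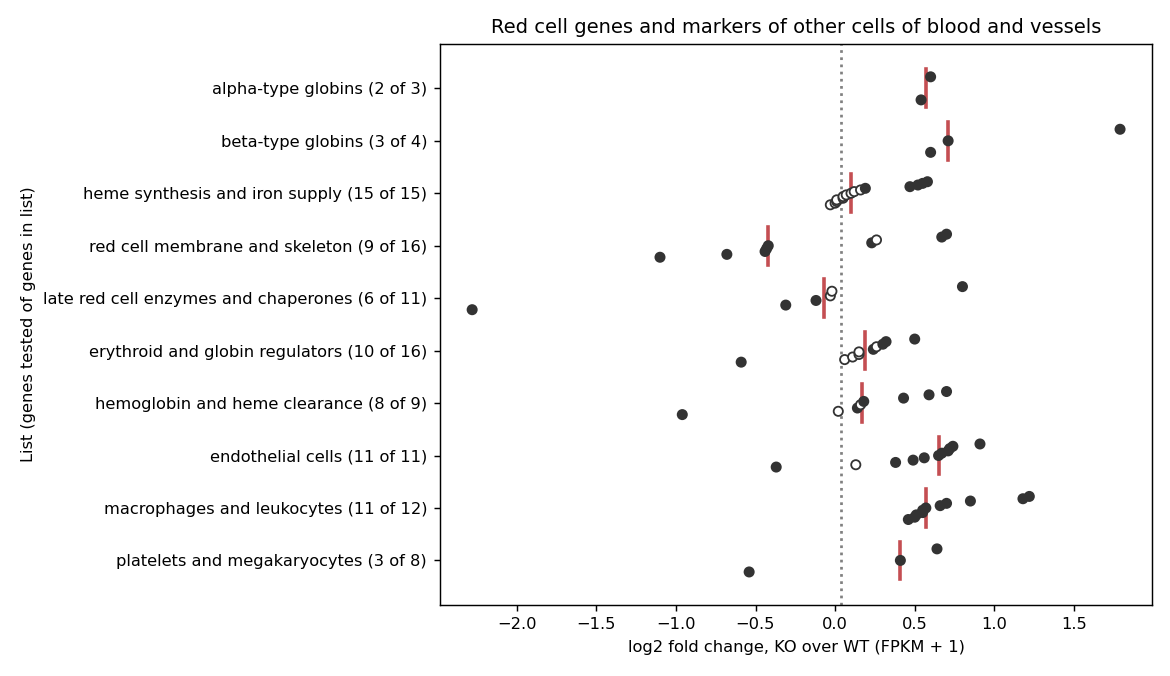
Log2 fold change of KO over WT on the log2(FPKM + 1) scale for genes of 10 lists; filled points passed an adjusted p of 0.05, open points did not, red bars are list medians and the dotted line is the median of all genes (0.04). The globins lie near the endothelial (median 0.65) and leukocyte genes (0.57), apart from Hbb-y at 1.79, while heme synthesis (0.10) lies close to all genes.

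By distance between centred log2(FPKM + 1) values over the 4 libraries, the genes closest to the mean profile of the adult globins were Slc12a4 (distance 0.022), Fam162a (0.022), Ccdc102a (0.027), Lpl (0.027) and Itga8 (0.027). Those closest to Alas2 were Arpc5 (0.003), Elovl5 (0.004), Ndst2 (0.004), Xpo1 (0.006) and Pik3r3 (0.009). With 4 libraries such likeness is common, as 143 genes lay within 0.1 of the adult globin profile and 1792 within 0.1 of Alas2.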

How the data were processed

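Total RNA of embryonic eye tissue was isolated by Trizol, and libraries followed Illumina's standard protocol, per the labels' protocols. The authors deposited FPKM values and TPM values for 18702 genes in a table per library, per the file headers. Named in the submitters' processing notes, with neither versions nor roles, are Cufflinks, DESeq, HISAT2 and TopHat and the builds GRCm38 and GRCh38. The annotation, filters, use of strand and division of shared reads were not found in the sources. FPKM divides by all fragments, so a fall of abundant transcripts raises all others.

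The count test planned for tables of counts was not used, since the tables hold none. Depth was estimated from the spacing of 117 to 131 low FPKM values per library of genes with 1 GENCODE transcript (length with ends moved to the RefSeq ends). The depth taken was the one that brought these same values closest to whole fragments, which raises the share near them. Even spacing, at a depth not fitted to the values, would put 30.0% no more than 0.15 from whole fragments. Per library, 76.7% to 82.9% of the values fell there. That is too few for a count test.

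Values were taken as log2(FPKM + 1), and genes averaging 1 FPKM or more were compared in R 4.3.3 by limma 3.58.1 (trended variance, a genotype term alone), with two-sided Benjamini-Hochberg adjusted p under 0.05 over all 13887 genes. Degrees of freedom were 2 residual and 4.89 prior, and the fit was tested on simulated data. Ratios within libraries used exact permutation tests in scipy 1.17.1. Counts and medians describe lists, with no set test. Named were the 8 genes, the 4 list members with the lowest p, and the 5 genes of nearest profile. Other list members that are named, such as Fech, Sox6, Slc4a1 and Klf1, were chosen after their values were seen. Some list members are not reported here. The 8 genes and the lists were chosen with earlier results of these data known. Sequences and coordinates come from RefSeq tables of GRCm38.p6, in which 99.7% of the gene numbers were found, and transcripts from GENCODE M21. As alternatives the filter was dropped or set to 5 FPKM in at least 2 libraries, the pseudocount was 0.1, TPM or 2 rescalings of FPKM were used, the replicate number was a block, or 1 library was omitted (for the ratios of means of Hba-x and Hbb-y, added after the data were seen). The motif TATAA was added after the promoters were seen.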

Additional observations from a re-analysis of the deposited data

How the results depend on the processing

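The 4 adult globins kept their direction under every alternative run and stayed past the threshold in each that kept all 4 libraries. Hbb-y kept its direction wherever tested, but passed each filter on low values only through its KO values, so those calls are a description. With no filter it was called higher (log2 fold change 1.79, limma adjusted p = 0.000703), as were 24.5% of all genes. Hbb-y ran from 1.70 to 2.90, highest with a pseudocount of 0.1, and did not pass the filter of 5 FPKM. Hba-x was called with no filter (0.80) and with TPM (1.22), where it passed the filter only through its KO values. Alas2 lost its call when libraries were scaled without crystallin and erythroid genes (0.05), with median-of-ratios scaling (0.08) and without each library in turn (0.11 to 0.15). Over all genes, calls went from 4654 higher and 2932 lower in KO (61.3% higher) to 7182 higher and 1721 lower with TPM (80.7% higher). Under scaling that left those genes out they were 3531 higher and 4334 lower (44.9% higher), and each library left out gave 5415 to 6225 calls. The replicate block gave 7828 calls against 7586 without it and changed no call among the 8 genes. Libraries with the same number deviated with a correlation of 0.04, and nothing in the labels says that a number pairs libraries. The 4 ratios moved by less than the SD between replicates with TPM. Of 176 counts of higher or lower genes over the other lists, 159 stayed within 1.5 times. The 17 that moved by more were all counts of higher genes, so the pooled share overstates how steady those were. At the estimated depth, 1 fragment of Hbb-bh1 is worth 0.092 to 0.093 FPKM, which limits what its values can show.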

Other observations

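Globin genes outside the 8 gave further values. Hbb-bh2, the gene between Hbb-bh1 and Hbb-bs, was the only tested gene of the beta cluster that was lower in KO, with 1.46 and 1.08 FPKM in the KO libraries, against 2.18 and 1.66 FPKM in the WT libraries (log2 fold change −0.36, limma adjusted p = 0.0473). The call was lost in 6 of 10 alternatives, among them TPM and the omission of KO replicate 1, KO replicate 2 or WT replicate 1 (adjusted p up to 0.245). Hbb-b1, an adult beta gene of a haplotype that strain C57BL/6 does not carry, was listed at 3.44 and 4.18 FPKM in KO, against 1.2 and 0.81 FPKM in WT (1.27, adjusted p = 0.000185). The Hbb-b1 sequence was not compared with those of Hbb-bs and Hbb-bt, and whether its reads belong to either was not tested. Its KO mean was 3.79-fold the WT mean, against 1.51-fold for Hbb-bs and 1.63-fold for Hbb-bt. Hbb-b2, also listed, was under the level tested, at 1.39 and 1.01 FPKM in KO, against 0.74 and 0.84 FPKM in WT. The theta-type genes Hbq1a and Hbq1b stayed at or under 0.45 FPKM in every library.

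Globins of other tissues moved little. Myoglobin (Mb), which stores oxygen in muscle, had 5.70 and 5.58 FPKM in KO, against 5.07 and 4.28 FPKM in WT (log2 fold change 0.23, limma adjusted p = 0.0445), and its call was lost in 6 of 11 alternatives. Cytoglobin (Cygb), known from fibroblasts, had 20.67 and 19.31 FPKM in KO, against 17.83 and 16.29 FPKM in WT (0.22, adjusted p = 0.0143), and its call was lost in 3 of 11. Neuroglobin (Ngb) was under the level tested, at 0.40 and 0.46 FPKM in KO, against 0.73 and 0.47 FPKM in WT.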
